A study of Mus musculus with 4 samples.

Results

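Alternative activation is the state that macrophages enter under the cytokines IL-4 and IL-13, as in parasite infection, allergy and tissue repair. Both cytokines bind receptors that contain the IL-4 receptor alpha chain, and the receptor activates the transcription factor STAT6, which switches on a set of secreted proteins, lectins and chemokines. Macrophages of tumors and of the peritoneal cavity often carry parts of this program, and dendritic cells share its chemokines and some of its lectins. The 10 genes described here were chosen by name from that program and were found in all 4 libraries, out of 30406 genes that the libraries list in common. They are the receptor gene Il4ra, the secreted effectors Retnla, Chil3 and Ear2, the lectin receptors Mrc1, Mgl2 and Clec10a, and the chemokines Ccl17, Ccl22 and Ccl24.

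Single cells were profiled from C57BL6J mice in 4 droplet libraries, made from KPCA ascites (mice of 9 weeks) and from omental tumors of 3 lines (8 weeks), named KPCA.A, KPCA.B and KPCA.C, where each tumor library pooled 4 tumors. The labels name the cells as fallopian tube epithelial, do not spell out the alleles behind the KPCA name, and name no source line for the ascites. No group received a treatment, and each group was 1 library, so no difference below has a replicate check or a p-value. Every interval is a 95% interval for counting error only, and a UMI (unique molecular identifier) stands for 1 captured transcript.

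The matrices held 3118 barcodes and 7420674 UMIs for ascites, against 3358 to 5703 barcodes and 40054369 to 95130645 UMIs for the tumors. After filtering, 11253 cells were used, with a median depth of 2075 UMIs in ascites, 7881 in KPCA.A, 7926 in KPCA.B and 14572 in KPCA.C. At most 19 barcodes were shared by any 2 libraries. One chemistry is labelled throughout, but barcodes beginning AAACCT numbered 5 in ascites and 0 in each tumor, and those beginning AAACCC numbered 0 in ascites and 9, 3 and 4 in KPCA.A, KPCA.B and KPCA.C. Ascites therefore differs from the tumors in depth, gene annotation and barcode set as well as in site, and these cannot be told apart.

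Clusters built without the 10 genes gave 2783 macrophage-like cells in ascites, 859 in KPCA.A, 656 in KPCA.B and 1142 in KPCA.C, a class that here includes 1 monocyte-like cluster of tumor cells. Assigning cells by summed markers instead (the marker gate below) gave 579, 551, 535 and 964 cells, so the ascites class depends most on the method, and the name is uncertain for its clusters. All 12 macrophage markers had UMIs in each library, and their summed level was 4024 CPM (UMIs scaled to a class total of 1000000) in ascites, 11285 in KPCA.A, 12258 in KPCA.B and 10785 in KPCA.C. Ascites cells were held by clusters 0, 4 and 7 and tumor cells by clusters 1, 3, 10 and 15, so ascites and tumors shared no cluster apart from 1 KPCA.C cell. None of the 12 macrophage markers was among the 10 leading genes of an ascites cluster, and summed neutrophil markers were at 2253 CPM in the ascites cells against 62.5 to 178 CPM in the tumors. Dendritic-like cells numbered 103 in ascites, 34 in KPCA.A, 34 in KPCA.B and 53 in KPCA.C. Tumor epithelial-like cells, the labelled cell type, numbered 2 in ascites, 784 in KPCA.A, 319 in KPCA.B and 993 in KPCA.C.

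By the GENCODE annotation of GRCm38, the members include 2 neighbouring pairs. Mgl2 (chr11:70130329-70137550) and Clec10a (chr11:70156197-70170834), which encode the related macrophage galactose-type lectins, are 18.6 kb apart. Ccl22 (chr8:94745590-94751699) and Ccl17 (chr8:94810453-94812036), which encode chemokines for the same receptor, are 58.8 kb apart. Retnla lies at chr16:48842551-48844461, Chil3 at chr3:106147554-106167564, Mrc1 at chr2:14229392-14332057, Ear2 at chr14:44102654-44103534, Il4ra at chr7:125552120-125579474 and Ccl24 at chr5:135569937-135573049, all annotated as protein coding.

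STAT6 is known to bind the palindrome TTCNNNNGAA, and STAT proteins in general the shorter TTCNNNGAA, and the windows below are shown because they hold such letters in genes that IL-4 is known to induce. Both strands were searched in the 250 bases before each start in RefSeq (GRCm38.p6), where 8 of the 10 genes had an entry. The longer motif was in 2 of these 8 and in 5.85% of 32851 mouse promoters, and the shorter was in 2 of 8 and in 7.02% of promoters. Capitals mark the motif, and each window is written 5′ to 3′ along the gene's strand, with Chil3 on the minus strand and the others on the plus strand.
Retnla, chr16:48842434-48842503: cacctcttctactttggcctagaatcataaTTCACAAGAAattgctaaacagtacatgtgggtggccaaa
Chil3, chr3:106167698-106167766: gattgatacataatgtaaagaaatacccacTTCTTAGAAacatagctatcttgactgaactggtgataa
Ccl17, chr8:94810269-94810338: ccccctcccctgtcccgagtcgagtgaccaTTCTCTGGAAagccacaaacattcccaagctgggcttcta
Ccl17, chr8:94810324-94810392: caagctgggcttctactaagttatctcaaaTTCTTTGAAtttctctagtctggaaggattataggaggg
The longer motif began 145 bases before the start of Retnla and 154 before that of Ccl17, and the shorter began 172 bases before Chil3 and 99 before Ccl17. The windows of Mrc1, Ear2, Mgl2, Il4ra and Ccl22 held neither. These matches describe letters and are not evidence of binding. The 3 genes that hold a motif did not share a pattern below: Retnla differed most between tumors, Chil3 was the member most widely detected in ascites, and Ccl17 had a higher level in dendritic-like than in macrophage-like cells.

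The first question was how the program differed between lines and between ascites and tumors in macrophage-like cells. KPCA.B macrophage-like cells held the highest levels of Retnla, Ear2, Mgl2 and Clec10a, KPCA.C those of Mrc1 and Il4ra, KPCA.A that of Ccl24, and ascites that of Chil3. Ascites macrophage-like cells almost lacked Mgl2 and Ccl22 and held little Ccl24. No library was thus highest for the whole set.

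Il4ra, the receptor chain through which IL-4 and IL-13 signal, was at 170.3 CPM in ascites macrophage-like cells, 235 in KPCA.A, 140.2 in KPCA.B and 347 in KPCA.C. KPCA.C was highest and KPCA.B lowest, with KPCA.B over KPCA.C at 0.404 (exact conditional interval 0.380 to 0.430). Unlike Retnla, Chil3, Mrc1 and Ccl24, it was not mainly a macrophage-like transcript in the tumors. Macrophage-like cells gave 96.8% of all Il4ra UMIs in ascites but 20.1% in KPCA.A, 37.6% in KPCA.B and 41.8% in KPCA.C. Tumor epithelial-like cells had 139, 89.6 and 87.3 CPM in KPCA.A, KPCA.B and KPCA.C, fibroblast-like cells 165, 126 and 134 CPM, and neutrophil-like cells 326 CPM in KPCA.A and 303 in KPCA.B. B cell-like cells had 187 CPM in KPCA.B and 199 in KPCA.C, above the 140.2 CPM of KPCA.B macrophage-like cells, whereas plasma cell-like cells had 6.29 to 18.1 CPM.

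Retnla encodes RELM alpha, a secreted protein of alternatively activated macrophages. It was at 513 CPM in ascites macrophage-like cells (interval 496 to 530.2), 401 in KPCA.A (385 to 418), 9987 in KPCA.B (9923 to 10051) and 487 in KPCA.C (476 to 499). KPCA.B stood alone, and KPCA.A over KPCA.B was 0.0402 (0.0386 to 0.0419), a 24.9-fold gap. Ascites over KPCA.A was 1.28 (1.21 to 1.35), but 0.441 without ascites cluster 4, described below. In ascites, KPCA.A and KPCA.C the transcript was held by few cells: the 10% of cells with the most Retnla held 94.0%, 96.6% and 96.3% of its UMIs, against 63.8% in KPCA.B.

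After each cell was thinned to 1000 UMIs, so that depth was equal, Retnla was found in 8.86% of ascites macrophage-like cells (exact Clopper-Pearson interval 7.68 to 10.2%), 9.31% in KPCA.A, 57.3% in KPCA.B (53.3 to 61.1%) and 8.91% in KPCA.C. Without thinning the shares were 17.5%, 18.9%, 82.6% and 29.6% at median depths of 2072, 5837, 11939.5 and 10476 UMIs. Lymphocytes, which should lack the gene, gave thinned shares of 4.29% in KPCA.A, 11.3% in KPCA.B and 5.38% in KPCA.C, at median depths of 2616, 3552 and 4779 UMIs. In KPCA.B the ratio of Retnla to C1q UMIs, the latter a macrophage transcript, was 143 per 100 in macrophage-like cells and 162, 114, 136 and 119 per 100 in lymphocytes, tumor epithelial-like, fibroblast-like and plasma cell-like cells. In KPCA.B the 2 transcripts thus stood in about the same ratio in cells that should hold neither. In KPCA.C the ratio was 32.4 per 100 in lymphocytes (48 Retnla UMIs) and 9.18 in macrophage-like cells, and in KPCA.A the lymphocytes held 7 Retnla and 14 C1q UMIs, against 6.46 per 100 in macrophage-like cells. The ratios differed in those 2 libraries, and the source of the lymphocyte UMIs was not tested in any library.

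Chil3 encodes the chitinase-like secreted protein Ym1. Its level in macrophage-like cells was 20752 CPM in ascites, 3655 in KPCA.A, 14714 in KPCA.B and 14912 in KPCA.C. KPCA.A was the low library: ascites over KPCA.A was 5.68 (5.60 to 5.76), KPCA.A over KPCA.B 0.248 (0.245 to 0.252) and KPCA.A over KPCA.C 0.245 (0.242 to 0.249). In ascites 97.4% of thinned cells held Chil3, against 48.9% in KPCA.A, 59.8% in KPCA.B and 65.5% in KPCA.C. Without thinning these were 99.4%, 73.8%, 91.0% and 98.6%. Thinned lymphocytes gave 27.1% in KPCA.A, 23.1% in KPCA.B and 46.5% in KPCA.C, so a single Chil3 UMI in a tumor cell says little. The close relative Chil4 was at 2.82 to 23.3 CPM, and reads of the pair may be split between them.

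Ear2, of the eosinophil-associated ribonuclease family, was at 129.8 CPM in ascites, 70.1 in KPCA.A, 339.9 in KPCA.B and 58.3 in KPCA.C. KPCA.A over KPCA.B was 0.206 (0.186 to 0.229) and KPCA.B over KPCA.C was 5.82 (5.39 to 6.29). Its relative Rnase2a had the same order in the tumors, with 93.4 CPM in KPCA.A, 735 in KPCA.B and 197 in KPCA.C, while ascites had 74 UMIs of it. Ear6 was the reverse, at 205 CPM in ascites and 0 to 0.107 CPM in the tumors. The family is nearly identical in sequence and the annotations of ascites and tumors differ, so values of single members between them are uncertain, and the part of the annotation was not tested.

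The lectin receptors did not move together. Mrc1, the mannose receptor CD206, was at 421 CPM in ascites macrophage-like cells, 755 in KPCA.A, 687 in KPCA.B and 1204 in KPCA.C, with KPCA.B over KPCA.C at 0.570 (0.554 to 0.587). Mgl2, the galactose-type lectin CD301b, was at 2.82 CPM in ascites (1.70 to 4.40), 550.2 in KPCA.A, 833 in KPCA.B and 308 in KPCA.C. The ascites value rests on 19 UMIs in 16 of 2783 cells, and the tumors exceeded it 195-fold in KPCA.A (125 to 325), 296-fold in KPCA.B (189 to 492) and 109-fold in KPCA.C (69.9 to 182).

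Clec10a, the related lectin CD301a, did not show that gap. It was at 34.5 CPM in ascites, 53.5 in KPCA.A, 95.5 in KPCA.B and 41.6 in KPCA.C, and ascites over KPCA.C was 0.830 (0.710 to 0.968). Reads of Mgl2 and Clec10a may be split by counting, since the genes are near relatives.

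Among the chemokines, Ccl24 (eotaxin-2, which draws eosinophils through CCR3) was the macrophage member. It was at 236 CPM in ascites, 4060.1 in KPCA.A, 1905 in KPCA.B and 2243 in KPCA.C, and KPCA.A over KPCA.B was 2.13 (2.09 to 2.17). Ascites over KPCA.A was 0.0582 (0.0553 to 0.0612), a 17.2-fold lower level. Thinned shares were 16.7% in ascites, 58.1% in KPCA.A, 40.1% in KPCA.B and 47.1% in KPCA.C, against 1.49 to 8.57% in tumor lymphocytes, and without thinning 25.5%, 70.7%, 69.2% and 71.8%.

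Ccl17 and Ccl22 encode ligands of CCR4, the receptor of regulatory and type 2 T cells. In macrophage-like cells Ccl17 was at 43.4 CPM in ascites, 146 in KPCA.A, 151 in KPCA.B and 56.3 in KPCA.C, and KPCA.A over KPCA.C was 2.60 (2.35 to 2.86). Ascites over KPCA.A was 0.297 (0.259 to 0.340) but 1.86 with a marker gate in place of clusters, and over KPCA.B 0.288 (0.253 to 0.327) but 2.43. These values came from few cells: in each library 10% of cells held all Ccl17 UMIs, and 4.82 to 8.08% of cells had any. Ccl22 was at 0.296 CPM in ascites, 5.81 in KPCA.A, 8.80 in KPCA.B and 3.17 in KPCA.C, from 2, 34, 82 and 45 UMIs. Of the 82 in KPCA.B, all lay in 7 cells.

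**Figure D1:**
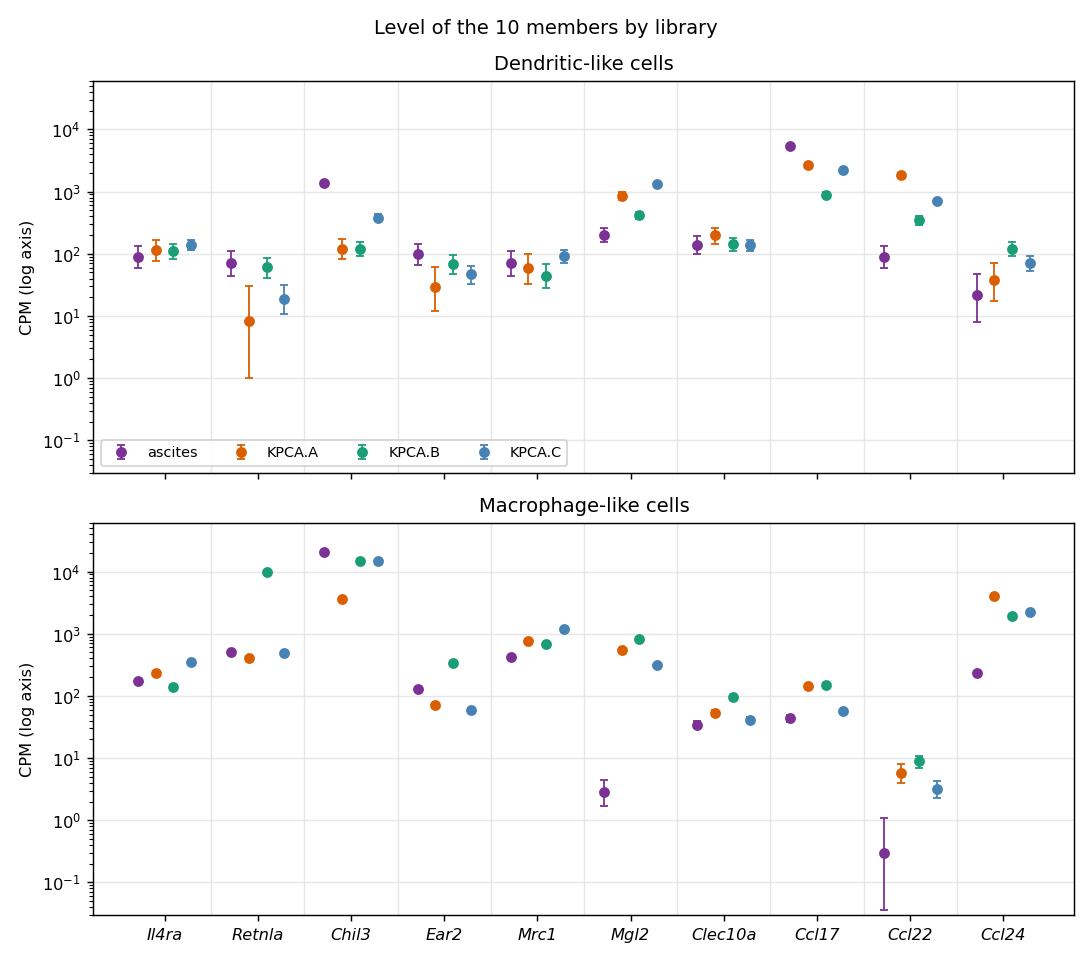
Level of each member in dendritic-like cells (upper panel) and macrophage-like cells (lower panel) in CPM on a log axis. Points are the 4 libraries in the order ascites, KPCA.A, KPCA.B and KPCA.C, and bars are 95% Poisson intervals; Retnla in KPCA.B (9987) and Mgl2 in ascites (2.82) stand apart in the lower panel.

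A member counted as past 2-fold if its 2 groups together held at least 50 UMIs. KPCA.B over KPCA.C had 7 of 10 members past 2-fold, 6 higher and 1 (Il4ra) lower, where 12.0% of all genes passed, and the median log2 ratio of the members was 1.31. The 6 higher were Retnla, Ear2, Mgl2, Clec10a, Ccl17 and Ccl22, of which Ccl17 and Ccl22 came from few cells, as given above. KPCA.A over KPCA.B had 4 of 10, with Ccl24 higher and Retnla, Chil3 and Ear2 lower, against 10.4% of all genes. KPCA.A over KPCA.C had 2 of 10, with Ccl17 higher and Chil3 lower, against 4.79% of all genes.

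The comparisons with ascites have a high background, so their counts say little about the members. Ascites over KPCA.A had 4 of 9 members past 2-fold (1 higher, 3 lower) where 50.2% of all genes passed, and without ascites cluster 4, a choice made after the data were seen, the count was 8. Ascites over KPCA.B had 7 of 10, all lower, against 51.5% of all genes. Ascites over KPCA.C had 5 of 9 (Ear2 higher, 4 lower) against 47.7% of all genes. The 3 comparisons share the ascites library.

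The next question was which macrophage-like cells held the members. In each tumor, Retnla and Chil3 had their highest level in cluster 10. Its cells also held Gata6, Alox15, Prg4, Lyve1 and Folr2, genes of resident peritoneal or tissue macrophages. Cluster 10 made up 2.56% of macrophage-like cells in KPCA.A, 48.5% in KPCA.B and 8.76% in KPCA.C. It held 51.1%, 94.2% and 63.8% of their Retnla UMIs and 11.3%, 88.1% and 70.9% of their Chil3 UMIs, in the same order. In KPCA.A most Chil3 UMIs thus lay in cluster 1 (11146) and cluster 3 (6949), against 2413 in cluster 10.

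Its Retnla level was 7533 CPM in KPCA.A (22 cells), 16836 in KPCA.B (318 cells) and 1781 in KPCA.C (100 cells), and its Chil3 level was 15160.4, 23194 and 60546 CPM. KPCA.C thus had the lowest Retnla and the highest Chil3 of the 3 libraries in the same cluster. The cells of this cluster differed between libraries. In KPCA.A, KPCA.B and KPCA.C, Alox15 was at 44.0, 659.6 and 1230.2 CPM and Lyve1 at 358, 291 and 101 CPM. Under a stricter cell filter, a cluster led by Retnla (51, 274 and 38 cells, in the same order) stood apart from another led by Chil3 and Retnla (4, 73 and 56 cells). Alox15 and Prg4 were leading genes of the latter only. The overlap of these clusters with cluster 10 was not computed. The part of the cell mix in the cluster 10 levels was not tested. Outside cluster 10, a cut chosen after the data were seen, Retnla was at 202 CPM in KPCA.A, 1312 in KPCA.B and 214 in KPCA.C, so that KPCA.B over KPCA.C was 6.14. Chil3 outside it was at 3333, 3973 and 5257 CPM, and KPCA.A over KPCA.B (0.839) and over KPCA.C (0.634) were no longer past 2-fold. For Retnla, KPCA.B was the highest in each of the 4 tumor clusters. KPCA.B over KPCA.C was 12.4 in cluster 1, 6.26 in cluster 3, 9.45 in cluster 10 and 10.5 in the monocyte-like cluster 15. Fibroblast-like cells also held more Retnla in KPCA.B (1378 UMIs in 124 cells) than in KPCA.C (74 UMIs in 170 cells). The part of such UMIs in these ratios was not tested, which matters most for cluster 15 (406 and 38.5 CPM). Within clusters, Chil3 in KPCA.A over KPCA.C was 1.04 (1.02 to 1.06) in cluster 1, 0.756 in cluster 3 and between 0.928 and 1.08 by its interval in cluster 15, but past 2-fold lower in cluster 10 (interval 0.240 to 0.261). KPCA.A over KPCA.B was 0.706 in cluster 1, 0.454 in cluster 3, 0.654 in cluster 10 and 2.04 in cluster 15.

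Cluster 1, led by Arg1, Pf4 and F13a1, had the most Mrc1 in KPCA.B and KPCA.C, with 1233 CPM in KPCA.A, 1070.5 in KPCA.B and 1689.7 in KPCA.C. It also had the most Ccl24, at 5671, 5611 and 2891 CPM. Cluster 3 was led by Lyz2 and C1q transcripts and had the most MHC class II transcript H2-Ab1 (4217, 4607 and 3648 CPM). By cluster names, it held 88.2% of macrophage-like Ccl17 UMIs in KPCA.A, 93.0% in KPCA.B and 72.5% in KPCA.C. These lay in 49 of its 444 cells, 31 of 144 and 38 of 246, in the same order. The monocyte-like cluster 15, marked by Ccr2 and Ly6c2, had Il4ra at 392 CPM in KPCA.A, 177 in KPCA.B and 340.3 in KPCA.C, and little Retnla in KPCA.A (23.2 CPM) and KPCA.C (38.5 CPM).

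In ascites, cluster 0 (1461 cells) and cluster 7 (572 cells) held Prg4, Alox15 and Gata6 (71.4 and 61.7 CPM), and cluster 4 (750 cells) held Pf4 at 8456 CPM, F13a1 at 869.6 CPM and Ccr2 at 433 CPM. Here Retnla was highest in cluster 4, at 1546 CPM, against 624 in cluster 7 and 123 in cluster 0. Cluster 4 held 74.0% of the Retnla UMIs of ascites macrophage-like cells. Most of these UMIs lay in few cells, as given above for the whole class, so the levels rest on a minority of cells. Chil3 was lowest in cluster 4, at 5963 CPM, against 24075 in cluster 7 and 25739 in cluster 0. Mrc1 was at 946 CPM in cluster 4, 341 in cluster 7 and 239.6 in cluster 0. S100a8, a neutrophil transcript, was at 3656 CPM in cluster 4, 1587 in cluster 7 and 1348 in cluster 0, and its part in these values was not tested. Mgl2 was at 2.42 to 3.63 CPM in every ascites cluster.

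**Figure D2:**
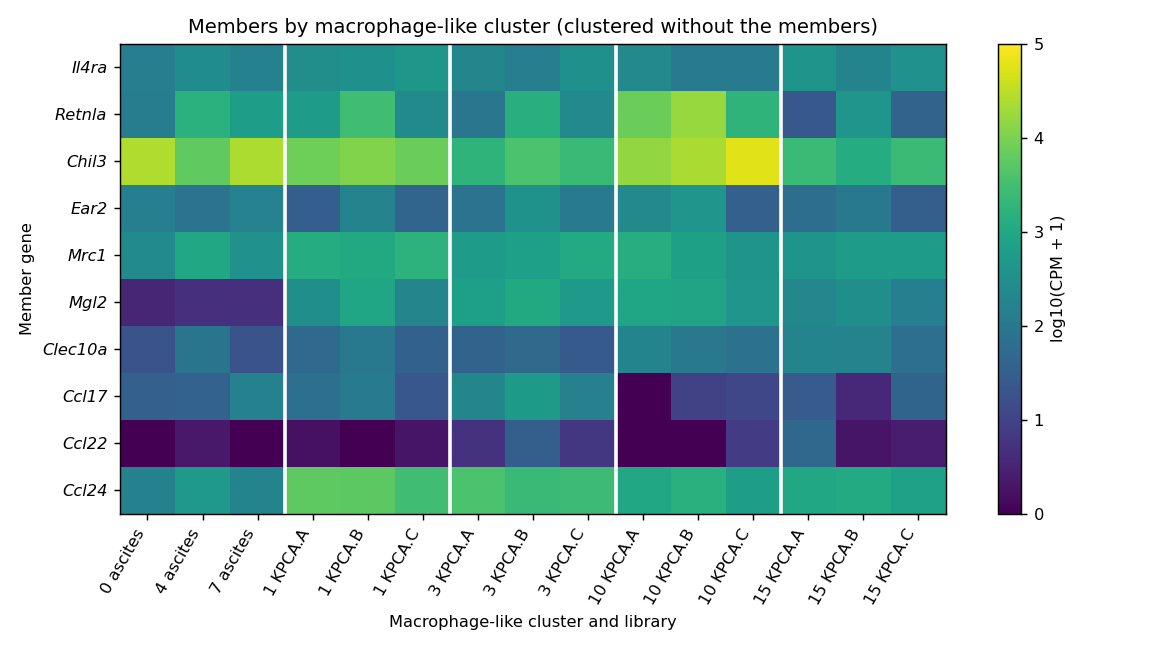
Level of each member, as log10(CPM + 1), in each macrophage-like cluster and library, with ascites clusters on the left and tumor clusters 1, 3, 10 and 15 to the right. Retnla is bright in cluster 10, most of all in KPCA.B (16836 CPM), Ccl17 is dark in cluster 10, and Mgl2 is dark across the ascites clusters.

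The dendritic-like cells split the set into groups. Ccl17, Ccl22 and, by clusters, Clec10a were higher in dendritic-like cells in all 4 libraries, and Chil3, Mrc1 and Ccl24 were lower. Retnla was lower too, though in ascites its direction depended on which cells were called. Dendritic-like over macrophage-like, Ccl17 was 125 in ascites (110.0 to 142), 18.1 in KPCA.A, 5.84 in KPCA.B and 38.8 in KPCA.C, from levels in dendritic-like cells of 5416, 2639, 881 and 2187 CPM. Ccl22 was 316 in KPCA.A (222 to 462), 39.2 in KPCA.B (30.0 to 51.7) and 221 in KPCA.C (163 to 307). In ascites it had 25 UMIs in dendritic-like and 2 in macrophage-like cells, a ratio of 303 (75.5 to 2637).

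The share of a library's transcripts depends also on how many cells each class had. The 103 dendritic-like cells of ascites gave 83.6% of its Ccl17 UMIs, against 41.0% from 34 cells in KPCA.A, 23.0% from 34 cells in KPCA.B and 67.3% from 53 cells in KPCA.C. Macrophage-like cells, few of which held it, gave 16.2%, 55.7%, 74.4% and 31.2% of Ccl17 UMIs. By cluster names, most thus came from them in KPCA.A and KPCA.B. The marker gate called 93 cells of KPCA.A and 94 of KPCA.B dendritic-like, and the shares under it were not computed. Ccl22 came from dendritic-like cells to 92.6% in ascites, 90.9% in KPCA.A, 62.0% in KPCA.B and 86.0% in KPCA.C. Of the other members in the tumors, dendritic-like cells gave at most 18.9% of Mgl2 and 14.2% of Clec10a UMIs.

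Mgl2 differed between libraries. Its dendritic-like over macrophage-like ratio was 71.4 in ascites (41.8 to 127), 1.55 in KPCA.A (1.34 to 1.79), 0.499 in KPCA.B (0.433 to 0.574) and 4.34 in KPCA.C (4.06 to 4.64). In ascites 74.7% of its UMIs were dendritic-like, from 56 UMIs. Clec10a was 4.05, 3.68, 1.49 and 3.26 in ascites, KPCA.A, KPCA.B and KPCA.C, though 0.979 in ascites with a marker gate. Both lectins were thus least skewed to dendritic-like cells in KPCA.B.

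The macrophage-like members were far lower in dendritic-like cells. Mrc1 ratios were 0.170 in ascites, 0.0777 in KPCA.A, 0.0650 in KPCA.B and 0.0758 in KPCA.C, and Retnla ratios 0.140, 0.0209, 0.00610 and 0.0390, where KPCA.A rests on 2 dendritic-like UMIs (0.00253 to 0.0755). In ascites the Retnla direction depended on which cells were called: the ratio was 1.67 with a marker gate, 2.04 at a Leiden resolution of 2 and 2.66 with the members kept in the clustering. Chil3 ratios were 0.0654, 0.0332, 0.00814 and 0.0257, and Ccl24 ratios 0.0911, 0.00929, 0.0628 and 0.0317. Il4ra was closer to even, at 0.527, 0.499, 0.782 and 0.402, and in KPCA.B its interval (0.584 to 1.03) included 1. Ear2 was 0.774, 0.418 (1.38 with a marker gate), 0.203 and 0.804, with intervals that included 1 in ascites (0.511 to 1.13) and KPCA.C (0.562 to 1.12).

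Past 2-fold between the classes were 7 of 9 members in ascites (3 higher and 4 lower in dendritic-like cells), where 34.3% of all genes passed. In KPCA.A it was 9 of 10 (3 higher, 6 lower) against 30.4% of all genes, in KPCA.B 8 of 10 (2 higher, 6 lower) against 28.3%, and in KPCA.C 9 of 10 (4 higher, 5 lower) against 26.9%. With cells assigned by summed markers in place of clusters, the count was 4 in ascites and 5 in KPCA.B.

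Dendritic subtypes, told apart by sub-clustering that kept the members out, differed in which chemokine they held. Summed over the tumors, mature dendritic-like cells (40 cells, marked by Ccr7 and Fscn1) had Ccl22 at 3037 CPM (2856 to 3227), type 2 cells (57) at 138, and type 1 cells (24) had 8 UMIs of it. Ccl17 was shared by mature (2532 CPM) and type 2 cells (2223 CPM) and was lower in type 1 cells (479.9 CPM). Mgl2 was at 1708 CPM in type 2 cells, 316 in mature and 72.5 in type 1 cells, and Clec10a was at 256 CPM in type 2 and 14.5 in mature cells. In ascites, type 2 cells (87) had Ccl17 at 5961 CPM, Mgl2 at 208 and Ccl22 at 16.6, and the 16 mature cells had Ccl17 at 1988 and Ccl22 at 549 CPM. These subtype names are uncertain in ascites. Without sub-clustering, its dendritic-like cells were named mature under a stricter (92 cells) and a looser cell filter (116), but type 2 at a Leiden resolution of 0.5 (106). No type 1 cluster was found among ascites dendritic-like cells, at a median of 2683 UMIs, where 9 of the 10 type 1 markers had UMIs (summed 456 CPM) and Xcr1 was at 0.

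**Figure D3:**
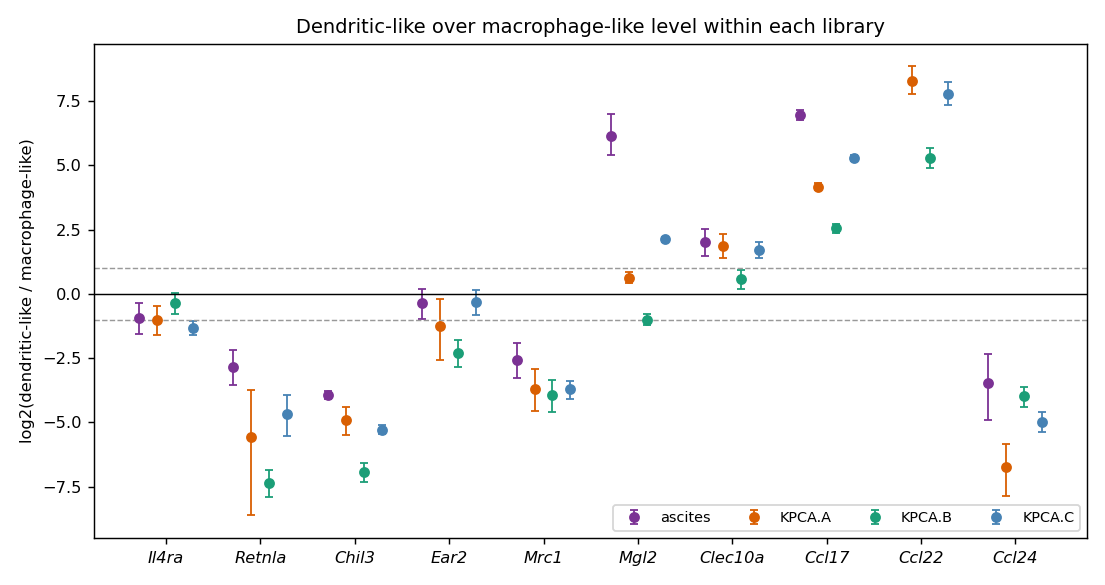
Dendritic-like over macrophage-like level of each member within each library on a log2 axis, with 95% exact conditional intervals and dashed lines at 2-fold. Ccl17 and Ccl22 lie above 0 in every library shown and Retnla, Chil3, Mrc1 and Ccl24 below; Ccl22 in ascites is not drawn, as it had under 50 UMIs.

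Co-detection in single cells was described at the common depth of 1000 UMIs. At least 3 of the 10 members were found in 19.2% of ascites macrophage-like cells (17.5 to 21.0%), 40.0% in KPCA.A (36.6 to 43.4%), 55.2% in KPCA.B (51.3 to 59.1%) and 43.2% in KPCA.C (40.2 to 46.2%). KPCA.B was highest and ascites lowest, with KPCA.A and KPCA.C overlapping. In lymphocytes the share was 1.43% in KPCA.A, 0.804% in KPCA.B and 1.15% in KPCA.C.

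Few ascites cells held no member: 0.482%, against 9.93% in KPCA.A, 5.63% in KPCA.B and 5.79% in KPCA.C. Chil3 alone was in 97.4% of these ascites cells, and ascites had no lymphocytes from which to read its background. With Chil3 left out of the count, a choice made after the data were seen, the shares with at least 3 members were 4.38% in ascites, 23.7% in KPCA.A, 37.7% in KPCA.B and 22.3% in KPCA.C. At least 5 members were found in 0.193% of cells in ascites, 3.68% in KPCA.A, 12.8% in KPCA.B and 5.23% in KPCA.C. Thinning left out 25.4% of ascites macrophage-like cells as too shallow, against 2.59 to 5.01% in the tumors.

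Within KPCA.B the share with at least 3 members was 68.5% in cluster 10, 65.0% in cluster 1 and 22.3% in the monocyte-like cluster 15. In cluster 1 KPCA.A had 48.4% and KPCA.C 47.2%. In cluster 3 it was 35.4% in KPCA.A, 72 of 144 cells in KPCA.B and 45.1% in KPCA.C. Leaving out cluster 10, the KPCA.B share over all remaining cells was 42.5%. In ascites it was 32.5% in cluster 4, 25.5% in cluster 7 and 12.8% in cluster 0. Of dendritic-like cells, 30.4% in ascites, 23.5% in KPCA.A, 15.6% in KPCA.B and 26.0% in KPCA.C held at least 3 members, with wide intervals (in KPCA.B 5.28 to 32.8%).

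**Figure D4:**
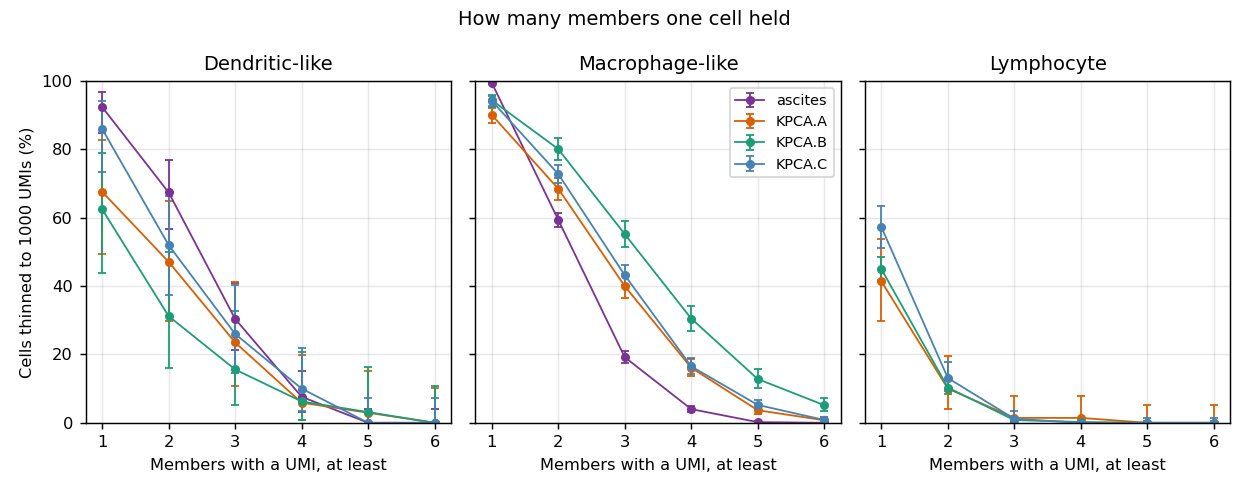
Share of cells, each thinned to 1000 UMIs, in which at least 1 to 6 of the 10 members had a UMI, in dendritic-like cells, macrophage-like cells and lymphocytes. Bars are 95% Clopper-Pearson intervals; in macrophage-like cells KPCA.B lies above the other libraries from 2 members on (55.2% at 3 members) and ascites below them (19.2%).

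For pairs, the share of cells with both genes was set against the product of the single shares, for pairs with at least 5 cells expected. Above the product were 11 of 27 such pairs in ascites, 20 of 30 in KPCA.A, 20 of 33 in KPCA.B and 17 of 29 in KPCA.C, with median ratios of 0.988, 1.11, 1.08 and 1.09. Chil3 was in 97.4% of thinned ascites cells, so its pairs there (0.924 to 1.03) could hardly exceed 1, and the ascites count and median, which include them, are not comparable with those of the tumors. Cells of a library differ in type and in free RNA, so these ratios are a description.

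The lectins and Ear2 gave the highest tumor values. Mgl2 with Clec10a was 1.61 in KPCA.A, 1.36 in KPCA.B and 2.77 in KPCA.C, Ear2 with Mgl2 was 1.86, 1.59 and 2.25, and Mgl2 with Ccl17 was 2.51 in KPCA.A and 1.43 in KPCA.B. Within cluster 3 alone, Mgl2 with Ccl17 was 2.27 in KPCA.A and 1.30 in KPCA.B. Ear2 with Ccl24 was 1.28 in KPCA.A, 1.85 in KPCA.B and 1.61 in KPCA.C but 0.576 in ascites (1.02 with a marker gate). Mrc1 with Ccl24 was above 1 in all 4 libraries, at 1.26 in ascites, 1.22 in KPCA.A, 1.31 in KPCA.B and 1.21 in KPCA.C.

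The receptor had ratios on both sides of 1. Il4ra with Retnla was 0.830 in ascites, 0.763 in KPCA.A, 0.757 in KPCA.B and 0.702 in KPCA.C. Il4ra with Ear2 was 0.827, 0.382, 0.686 and 0.664, and Il4ra with Mgl2 was 0.796, 0.890 and 0.673 in the tumors. Il4ra with Ccl17 was the lowest pair of KPCA.C macrophage-like cells, at 0 with at least 5 cells expected. Ear2 pairs of KPCA.A rest on few cells, as thinned Ear2 was in 8 of 287 cells of cluster 1 and 21 of 443 of cluster 3. Il4ra with Mrc1 was above 1 throughout, at 1.21, 1.08, 1.38 and 1.14, and Il4ra with Ccl24 was near 1, at 0.988, 1.09, 1.08 and 1.09. Retnla with Chil3 was 1.35 in KPCA.A, 1.17 in KPCA.B and 1.29 in KPCA.C. In dendritic-like cells, Mgl2 and Ccl17 were together in 11 ascites cells where 7.70 were expected and in 15 KPCA.C cells where 8.80 were expected. That was the highest pair of both libraries. Of 9 such dendritic-like pairs in ascites, 6 lay above the product and 3 below, the lowest being Il4ra with Ccl17 (0.390). In KPCA.C 1 of 3 lay above and 2 below, the lowest being Chil3 with Mgl2 (0.294).

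**Figure D5:**
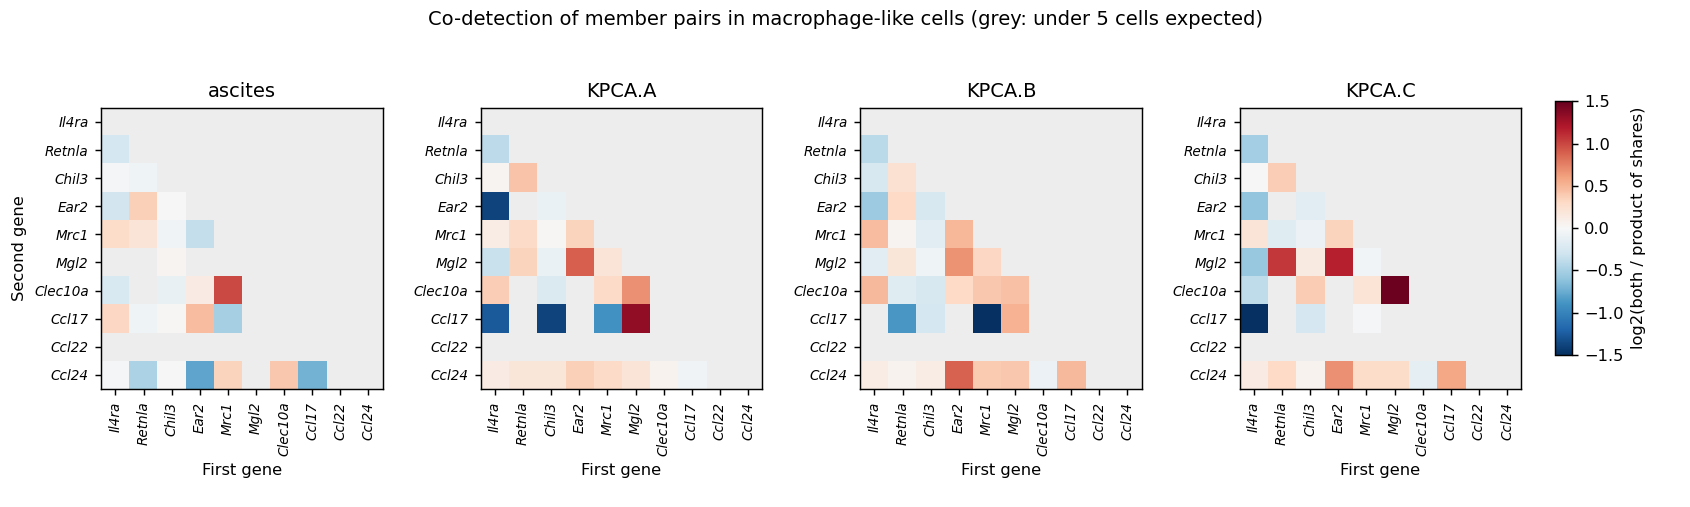
Co-detection of member pairs in macrophage-like cells thinned to 1000 UMIs, as the log2 of the share with both genes over the product of the single shares, in ascites, KPCA.A, KPCA.B and KPCA.C. Red pairs were together more and blue pairs less than the product, colours end at 1.5 either way, and grey cells had under 5 cells expected or repeat a pair; Mgl2 with Clec10a is red in each tumor and Il4ra with Retnla blue in each library.

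The other genes of the IL-4 pathway were read from a list of 14, Il4ra among them. Il4 and Il13 transcripts were at the limit of detection: in macrophage-like cells Il4 had at most 1 UMI and Il13 at most 3 in any library. T cell-like cells held 0, 6 and 9 Il4 UMIs in KPCA.A, KPCA.B and KPCA.C and 2, 13 and 43 Il13 UMIs, and 8 mast cell-like or basophil-like cells of KPCA.B held 4 Il4 UMIs. Il13ra2, the decoy receptor, had at most 1 UMI in macrophage-like cells of any library, whereas tumor epithelial-like cells had 28 UMIs in KPCA.A (3.19% of cells), 19 in KPCA.B (4.39%) and 80 in KPCA.C (6.45%).

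The shared chain Il2rg was at 8.30 CPM in ascites, 73.7 in KPCA.A, 89.7 in KPCA.B and 54.3 in KPCA.C, and Il13ra1 at 70.4, 101, 50.6 and 106 CPM. Stat6 was at 46.7, 61.2, 69.6 and 80.2 CPM, and the kinases Jak1 at 112, 175, 233 and 179, Jak3 at 3.41, 21.9, 18.8 and 28.1 and Tyk2 at 8.00, 36.1, 41.0 and 34.1 CPM. Irf4, a transcription factor induced by IL-4, was highest in KPCA.B, at 1.93 CPM in ascites, 18.6 in KPCA.A, 45.8 in KPCA.B and 13.2 in KPCA.C. The negative regulators Socs1 (1.04, 30.4, 14.1 and 22.0 CPM) and Cish (11.4, 95.4, 45.2 and 89.9 CPM) were lower in KPCA.B than in the other tumors, and the phosphatase Ptpn6 was at 88.0, 174, 269 and 170.4 CPM. With 5 CPM added to both levels, ascites was past 2-fold lower for 6, 8 and 7 of the 11 measured genes against KPCA.A, KPCA.B and KPCA.C, where 26.2%, 27.5% and 22.5% of all genes were. The list's median log2 ratios were -1.66, -1.56 and -1.39, against -0.52, -0.54 and -0.48 over all genes. Between tumors at most 1 gene passed in each direction.

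In 24 other genes of alternative activation, KPCA.B over KPCA.C had 6 higher and 4 lower past 2-fold, where 2.35% and 2.95% of all genes passed, with a median log2 ratio of -0.22 against 0.07 over all genes. Alox15, a lipid-oxidising enzyme induced by IL-4, was at 593 CPM in ascites, 4.79 in KPCA.A, 374 in KPCA.B and 235 in KPCA.C. It is also counted among the large peritoneal macrophage genes below. The growth factor gene Igf1 was at 0.741, 42.6, 171 and 39.6 CPM, while Cdh1, encoding E-cadherin, was at 4.15, 125, 52.5 and 125 CPM and the transglutaminase gene Tgm2 at 85.1, 966, 427 and 1112 CPM. KPCA.B was thus high for Igf1 and low among the tumors for Cdh1 and Tgm2.

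Classical activation genes were lower in KPCA.B macrophage-like cells: of 18 measured, KPCA.A over KPCA.B had 11 past 2-fold higher and 0 lower, and KPCA.B over KPCA.C had 0 higher and 9 lower, where 2.78% of all genes were higher in KPCA.A over KPCA.B and 2.95% lower in KPCA.B over KPCA.C. The median log2 ratios were 1.16 and -0.98, against -0.03 and 0.07 over all genes. The cytokine gene Il1b was at 47.6 CPM in ascites, 822 in KPCA.A, 96.7 in KPCA.B and 573 in KPCA.C, and Ptgs2, encoding a prostaglandin synthase, at 1.93, 127, 6.76 and 92.7 CPM. The interferon-induced chemokine Cxcl9 was not low in KPCA.B, at 0.148, 294, 277 and 161 CPM, and Cxcl10 was at 0.889, 170.3, 55.8 and 53.5 CPM.

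Of 12 large peritoneal macrophage genes, KPCA.A over KPCA.B had 10 past 2-fold lower, and KPCA.B over KPCA.C had 6 higher, with 0 in the other direction in each, where 2.52% of all genes were lower and 2.35% higher. Their median log2 ratios were -2.35 and 1.01, against -0.03 and 0.07 over all genes. Prg4, a secreted lubricant, was at 1484 CPM in ascites, 6.33 in KPCA.A, 269 in KPCA.B and 84.9 in KPCA.C, Cd5l at 425, 8.38, 387 and 102 CPM and Garnl3 at 27.4, 0.855, 38.4 and 11.4 CPM. These are sums over the class, of which cluster 10 made up 2.56% in KPCA.A, 48.5% in KPCA.B and 8.76% in KPCA.C. Within cluster 10, in that order, Gata6 was at 31.4, 65.7 and 94.3 CPM and Alox15 at 44.0, 659.6 and 1230.2 CPM. Prg4 there was at 101, 479 and 468 CPM. The part of the cluster shares in the list ratios was not tested. All 7 MHC class II genes were past 2-fold lower in ascites than in each tumor, where 26.2%, 27.5% and 22.5% of all genes were lower against KPCA.A, KPCA.B and KPCA.C. Their medians were -3.60, -3.58 and -2.85, against -0.52, -0.54 and -0.48 over all genes. Cd74, the invariant chain, was at 650.3 CPM in ascites, 10642 in KPCA.A, 9785 in KPCA.B and 6225 in KPCA.C, and Ciita, the regulator of these genes, at 1.63, 134, 165 and 60.5 CPM. Of 6 mitosis genes, 5 were past 2-fold higher for KPCA.B over KPCA.C, against 2.35% of all genes, and Mki67 was at 180.0 CPM in KPCA.B and 35.8 in KPCA.C.

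Receptors of the member chemokines had at most 5 UMIs each in macrophage-like cells of any library. Ccr4, the receptor for Ccl17 and Ccl22, was at 27.0 CPM in T cell-like cells of KPCA.A, 19.8 in KPCA.B and 14.6 in KPCA.C, in 6.52%, 6.93% and 5.85% of these cells. Ccr8 was at 27.0, 9.90 and 18.4 CPM, and Ccr3, the receptor for Ccl24, at 33.7, 9.00 and 1.94 CPM from 5, 10 and 2 UMIs. The scavenger Ackr2 had 12 UMIs in B cell-like cells of KPCA.B and 2 in KPCA.C.

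Pattern likeness was the Pearson correlation of log2(CPM + 5) over 32 profiles of class and library, among 13101 genes. The profiles share libraries and depth, so the values are a description. Most like Retnla were Folr2 (0.81), Lyve1 (0.80) and Rnase2a (0.77), and most like Chil3 were Arg1 (0.92), Ccl6 (0.90) and Ccl9 (0.86). Most like Mrc1 were Aif1 (0.93), Msr1 and F7 (0.92 each), like Ccl24 C1qa (0.91), Msr1 and C1qc, and like Ear2 Cd68 (0.91), Tbxas1 and Clec4a2. Mgl2 was most like Slamf8 (0.93), Ppfia4 and Aif1, Clec10a most like Cds1 (0.94), Grk3 and Htr7, and Il4ra most like Brk1 (0.89), Soat1 and Rara.

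Ccl17 was most like Rnf180 (0.90), Ocstamp and Htr7, and Ccl22 most like Dcstamp (0.81), Cd209a and Htr7. Among the members, Mrc1 and Ccl24 were most alike (0.90), then Mgl2 and Clec10a and Ear2 and Clec10a (0.89 each), whereas Retnla and Ccl22 were least alike (-0.03).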

How the data were processed

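The deposited matrices are unnormalized UMI counts by gene and barcode, and the other deposited files hold barcodes and gene names. Per the file headers they were written by Cell Ranger 3.0.2 (ascites) and 4.0.0 (tumors). The submitters' processing notes name Cell Ranger 3.1.0 and mm10, and per the labels' protocols tumors were digested with collagenase type I and DNase I. A cell needed 300 genes, 500 UMIs and no more than 15% mitochondrial UMIs, which left 2921 in ascites, 2648 in KPCA.A, 2586 in KPCA.B and 3098 in KPCA.C, where the labels state 5000 cells. Counts of the shared genes were scaled to 10000 per cell, and 2000 variable genes without the members, 30 principal components and 15 neighbours gave Leiden clusters (resolution 1, scanpy 1.11.5, leidenalg 0.10.2, Python 3.11.15). Clusters were named from fixed marker lists; dendritic-like cells were clustered again with 1000 variable genes. Names were rebuilt here, so classes may differ from the study's.

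Counts were summed per class and library and given as CPM, with exact Poisson, exact conditional and Clopper-Pearson intervals at 95% (scipy 1.17.1), which cover counting error only. A count of 0 allows up to 3 counts. Doublets were kept; leaving out the highest scores at 0.8% per 1000 barcodes was an alternative. All 10 members are named, with every measured gene of the pathway and chemokine receptor lists and up to 4 genes of each other list, those with the largest ratio in any of 6 contrasts. Chil4 and the genes given to describe clusters were chosen after their values were seen. Likeness used classes of at least 20 cells and genes of at least 200 UMIs, without ribosomal, mitochondrial and immunoglobulin genes, and the 3 highest are named. The ratio of list genes added 5 CPM. Scripts were tested on simulated data. The members and lists were chosen with earlier results of these data known. The promoter windows cover 250 bases before and 50 after each start; Clec10a and Ccl24 had no entry.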

Additional observations from a re-analysis of the deposited data

Results flagged for a closer look

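The dendritic-like over macrophage-like ratio of Mgl2 pointed in different directions within the libraries. It was 71.4 in ascites, 1.55 in KPCA.A, 0.499 in KPCA.B and 4.34 in KPCA.C, so dendritic-like cells were higher in 3 libraries and lower in KPCA.B. The difference between libraries was not tested, as each was 1 library.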

How the results depend on the processing

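No paired analysis was possible because each group was 1 library and the values come from no test. Of 183 summary values under alternatives, 156 kept their size and 27 moved; of 1429 values of single genes or pairs, 1034 kept it, 386 moved and 9 reversed. Settings that left out a cluster or Chil3 were chosen after seeing the data. Ascites cluster 4 lost its name, and so left the class, under the stricter filter, at Leiden resolution 2 and with members kept in clustering. Under these settings, and with cluster 4 left out on purpose, ascites over KPCA.A had 8 members past 2-fold in place of 4. With members kept, a further ascites cluster (593 cells) and a tumor cluster (239 cells) also went unnamed. That left 1432 macrophage-like cells in ascites in place of 2783. With the marker gate, the dendritic-like against macrophage-like counts were 4 in ascites and 5 in KPCA.B, and 7 of 18 ascites pairs lay above the product; the cause was not tested. The ascites share with at least 3 members was 14.0% (stricter filter), 14.1% (resolution 2, and without cluster 4), 12.8% (members kept) and 23.1% (marker gate). Thinned to 500 UMIs, the shares were 8.38% in ascites, 21.4% in KPCA.A, 35.4% in KPCA.B and 23.1% in KPCA.C, and at 2000 UMIs 38.6%, 62.2%, 75.0% and 64.9%. Without Chil3 they were 4.38%, 23.7%, 37.7% and 22.3%. Without the monocyte-like cluster the share was 62.9% in KPCA.B and 47.0% in KPCA.C, and without cluster 10 it was 42.5% in KPCA.B.

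Reversed values, whose cause was not tested, were as follows. With the marker gate, Ccl17 in macrophage-like cells was 1.86 for ascites over KPCA.A and 2.43 for ascites over KPCA.B. Dendritic-like over macrophage-like, Retnla in ascites was 1.67 with the gate, 2.04 at resolution 2 and 2.66 with members kept, Clec10a in ascites was 0.979 and Ear2 in KPCA.A 1.38 with the gate. Ear2 with Ccl24 in ascites was 1.02 with the gate, and Mrc1 with Ccl17 in KPCA.B was 1.04 at 2000 UMIs. The looser filter left under 20 dendritic-like cells in each tumor (16 in KPCA.A, 11 in KPCA.B and 16 in KPCA.C) and gave no value there. Ascites depth limits its low members most.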
